A study of Mus musculus with 12 samples.

Results

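The genes described here are 34 genes of the ATF4 stress response, of serine and one-carbon metabolism and of amino acid transport, chosen by name among the 54232 gene IDs counted in mouse eye organoids. They comprise 13 transcription factors and stress regulators, 8 enzymes of serine synthesis and one-carbon metabolism, 4 enzymes of asparagine, proline and alanine synthesis, and 9 amino acid transporters. The choice was made with earlier results of these data known. Their shares of calls, set below beside those of all genes, are therefore description and not independent evidence. Of the 34, 33 passed the filter on low counts and were tested among 17721 genes. Fgf21, which encodes a secreted hormone, did not pass, with 39 counts over all 12 libraries and 0 to 8 counts per library.

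All libraries came from eye organoids at day 7 of culture, grown from a single embryonic stem cell line that is heterozygous for a GFP knock-in at Rax, so that the control organoids carry the reporter too. The 3 groups of 4 libraries each were control organoids, organoids given 20 µM of GNE-140 for 3 days (LDHi), and organoids given GNE-140 together with 25 mM sodium L-lactate (LDHi+lactate). GNE-140 inhibits lactate dehydrogenase, the enzyme that turns pyruvate into lactate. For the lactate, the labels give a 12 h pretreatment, whereas the methods place it in the presence of GNE-140. Each organoid is a mixture of cells, and in such bulk RNA fewer cells of a type and less RNA per cell cannot be told apart.

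Libraries carry replicate numbers 1 to 4 in each group. Their cell type label is eye organoid for replicates 1 and 2 and retina progenitors for replicates 3 and 4, although the methods describe only whole eye organoids, and these pairs of numbers are called the first and the second set below. The first set was also sequenced deeper, with 37284585 to 48271386 counts per library against 22174002 to 29919036 in the second. Label, depth and set coincide, so their parts in any difference between the sets cannot be told apart. No marker of the eye field, of pluripotent cells, of mesenchyme, of mesoderm and endoderm or of neurons was at 0 counts over a group.

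ATF4 is a transcription factor whose mRNA is translated more when the initiation factor eIF2 is phosphorylated, as happens when cells lack amino acids, accumulate unfolded proteins or lose mitochondrial function. It binds C/EBP-ATF response elements together with partner factors and raises genes that import amino acids, make serine, asparagine and proline, feed one-carbon units into nucleotide synthesis and charge tRNAs. Since ATF4 is controlled at translation as well as at the level of its mRNA, mRNA counts of its target genes are a common readout of its activity.

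Upstream sequences were available for 30 of the 34 genes (35 promoters, RefSeq, build GRCm38.p6). The 250 bases upstream of each start were searched on both strands for the C/EBP-ATF response element, written TGATGNAAN, which occurred in 7 of the 35 promoters (20%) and in 1129 of all 32851 promoters of that length (3.44%). The 7 stretches are shown because they are the matches to the element named for ATF4, with the matching bases in capitals. CTTGCATCA and the like are the element on the other strand, and the Slc7a11 stretch holds a match on each strand. A gene with several annotated starts is shown at the start that has the match.
Atf3, chr1:191183411-191183469 (minus strand): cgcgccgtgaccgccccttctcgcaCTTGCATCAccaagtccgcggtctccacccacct
Chac1, chr2:119351023-119351081 (plus strand): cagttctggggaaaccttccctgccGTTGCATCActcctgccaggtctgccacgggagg
Fgf21, chr7:45615597-45615655 (minus strand): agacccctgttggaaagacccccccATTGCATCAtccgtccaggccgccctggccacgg
Nupr1, chr7:126625548-126625606 (minus strand): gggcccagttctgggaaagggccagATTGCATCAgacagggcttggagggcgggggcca
Asns, chr6:7693210-7693257 (minus strand): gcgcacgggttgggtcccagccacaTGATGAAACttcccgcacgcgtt
Pycr1, chr11:120643818-120643876 (minus strand): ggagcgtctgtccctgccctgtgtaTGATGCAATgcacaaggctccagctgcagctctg
Slc7a11, chr3:50443628-50443704 (minus strand): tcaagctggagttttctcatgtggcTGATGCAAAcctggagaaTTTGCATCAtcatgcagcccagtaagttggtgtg
The match nearest to a start was that of Asns, whose stretch ends at the base before the start. The cAMP response element, TGACGTCA, was in 0 of the 35 promoters and in 1.55% of all promoters. These are matches of letters in a short window. Of the 7 genes, Fgf21 was not tested. Asns was called higher in LDHi organoids, only when compared within replicate numbers, as were 11 of all 33 tested members. Asns, Chac1, Nupr1, Pycr1 and Slc7a11 were lower in the second set, as were 26 of the 33. These calls are given below, and their relation to the matches was not tested.

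Levels are given as CPM, each gene's count as its share of the library total after TMM scaling, and between genes as CPM per kilobase of exon. On the latter scale, Asns (asparagine synthetase) had the highest mean over the control organoids, at 114 ± 55.8 CPM per kb (SD, n = 4). Psat1, the aminotransferase of serine synthesis, followed at 103 ± 66.5 and the stress-induced mTORC1 inhibitor Ddit4 at 88.4 ± 34.2 CPM per kb. These neighbours did not differ beyond their spread, since each SD is larger than the gap, and their order changed with the set. In control replicates 3 and 4 Ddit4, which reached 138 CPM per kb, was above Asns, which went down to 68.5 CPM per kb. At the low end stood the cystine transporter Slc7a11 at 2.03 ± 1.97, the chromatin-associated stress protein Nupr1 at 1.04 ± 0.719 and Fgf21 at 0.0565 ± 0.0763 CPM per kb. Atf4 itself, at chr15:80255184-80257541 on the plus strand (mm10), was at 51.8 ± 31.4 CPM per kb. For most of the genes the spread among the control libraries came with the set, as the plot of levels by library shows.

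**Figure D1:**
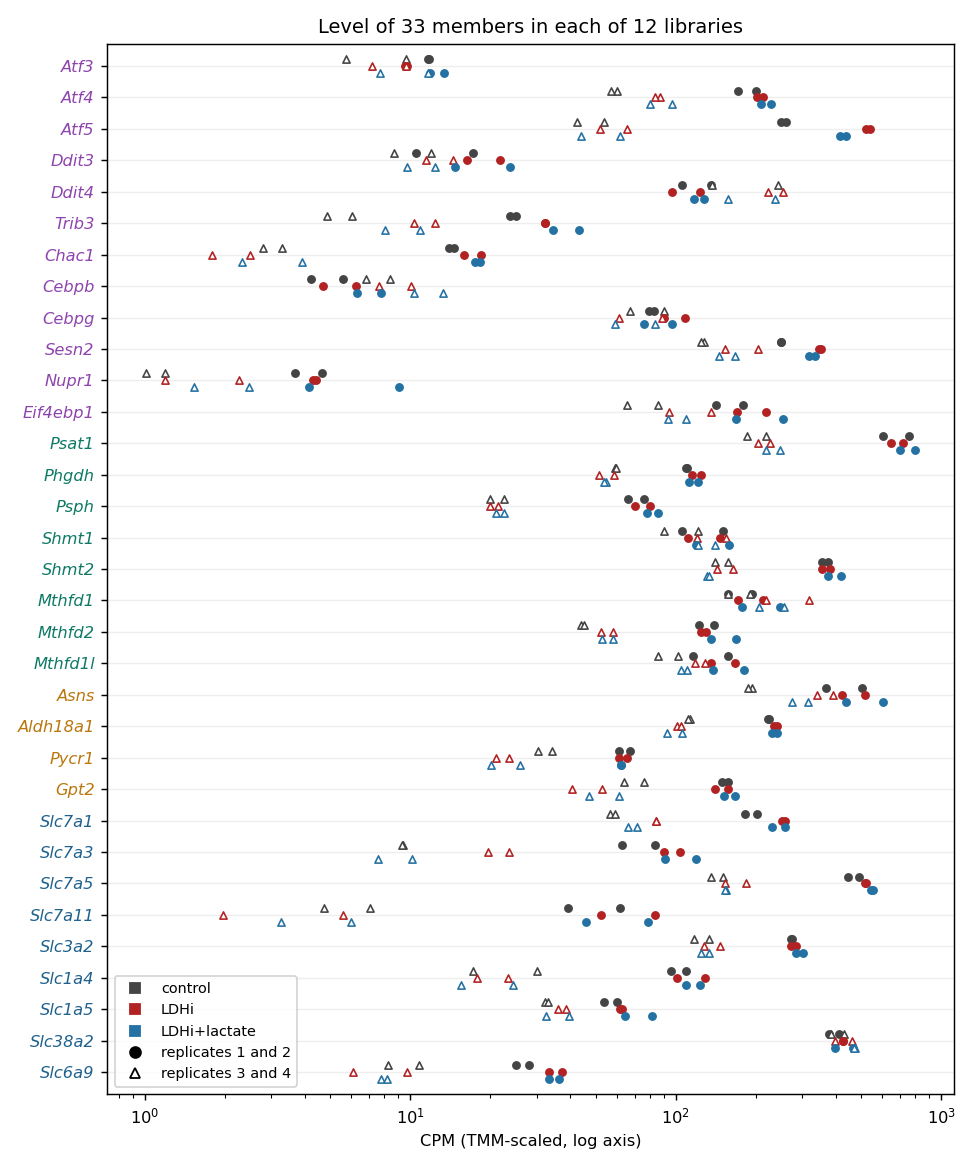
Level of each of the 33 tested genes in each of the 12 libraries, in TMM-scaled CPM on a log axis. Colors are the groups, filled circles replicates 1 and 2, open triangles replicates 3 and 4, and gene names are colored by role (purple, stress regulators; green, serine and one-carbon; ochre, other synthesis; blue, transporters). For Slc7a11 the circles lie between 39.4 and 83.9 CPM and the triangles between 1.98 and 7.04 CPM.

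The first comparison asked what inhibition of lactate dehydrogenase did to these genes. In the main fit, which compared the groups without a block, 0 members were called. A second fit compared each library within its replicate number, a pairing that was read from the data. In this second fit 11 of the 33 genes were called higher in LDHi organoids and 0 lower. They were the regulators Atf4, Atf5, Trib3, Sesn2 and Eif4ebp1, the one-carbon enzymes Mthfd1 and Mthfd1l, Asns, and the transporters Slc7a1, Slc7a3 and Slc7a5. The changes were small, from 0.19 for Slc7a5 to 0.80 for Slc7a3 on the log2 scale. By role, 5 of 12 regulators, 2 of 8 serine and one-carbon enzymes, 1 of 4 other synthetic enzymes and 3 of 9 transporters were called. The genes of serine synthesis proper were not among them: Psat1, Phgdh and Psph differed by 0.06, 0.01 and 0.03 (log2). The test was edgeR's quasi-likelihood test with the replicate number as a block and Benjamini-Hochberg adjustment over all genes, at an adjusted p under 0.05. By that test 9.85% of all genes were higher and 10.1% lower, against 33.3% and 0% of the members. The median log2 fold change was 0.13 over the members and 0.01 over all genes. The count was 6 without control replicate 3, control replicate 4, LDHi replicate 3 or LDHi replicate 4. In these fits 2435, 2912, 2346 and 2435 of all genes were called in either direction, against 3533 with all 12 libraries. Atf5, Trib3, Sesn2, Eif4ebp1 and Slc7a1 were called whichever library was left out.

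Without the block, when the groups were compared as they stood, 0 members were called while 3.09% of all genes passed. Before adjustment, 1 of the 33 members (Mthfd1) was under 0.05 in edgeR, against 2916 of all 17721 genes. The members then had a median log2 fold change of 0.17, with 30 above 0. For each of the 33 genes the LDHi and control libraries overlapped. Within replicate numbers, 14 of the 33 genes were higher in LDHi in 4 of 4 numbers, namely the 11 above with Shmt2, Slc1a5 and Slc38a2 and a total of 42.4%, against 18.5% of all genes, and 0 were lower in all 4. Any positive difference counts here, and for Shmt2 the log2 ratios were only 0.00 to 0.06.

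Among the transcription factors, Atf4 was at 171, 199.9, 60.3 and 57.2 CPM in control replicates 1 to 4 and at 214, 203, 86.9 and 83.3 CPM in the LDHi libraries of the same numbers. Each LDHi library was above the control of its number, and in the second replicate only narrowly. The log2 fold change was 0.35 ± 0.08 (SE, edgeR with the block, adjusted p = 0.0165). Atf5, a related factor that is also controlled at translation and is linked to the mitochondrial stress response, read 259.6, 250.1, 42.5 and 53.7 CPM in controls. In LDHi organoids it read 538, 522, 52.0 and 65.6 CPM, a log2 fold change of 0.68 ± 0.13 (edgeR with the block, adjusted p = 0.00598). In the first set the LDHi libraries stood far above their controls, and in the second they stood closer to them. The other factors of the list did not pass: Ddit3 (CHOP, a factor of prolonged stress) had a log2 fold change of 0.41 ± 0.14 (edgeR with the block, adjusted p = 0.0620). Atf3, Cebpb and Cebpg differed by −0.07, 0.19 and 0.10.

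Trib3, a pseudokinase that dampens ATF4 signaling, was at 23.7, 25.1, 6.03 and 4.84 CPM in controls and at 32.2, 32.3, 12.4 and 10.3 CPM in LDHi. Every LDHi library exceeded its control, by 0.71 ± 0.14 on the log2 scale (edgeR with the block, adjusted p = 0.00562). Sesn2, a leucine sensor that restrains mTORC1, went from 250.0, 249, 128 and 124 CPM to 352, 345, 205 and 154 CPM. This was the smallest adjusted p of the list, 0.000487 in edgeR with the block, at a log2 fold change of 0.49 ± 0.06. Eif4ebp1, a repressor of cap-dependent translation, was at 142, 179.5, 85.6 and 65.7 CPM in controls and at 170.4, 218, 136 and 94.7 CPM in LDHi, 0.43 ± 0.08 higher (log2, edgeR with the block, adjusted p = 0.00479). Sesn2 acts upstream of mTORC1 and Eif4ebp1 downstream of it. Ddit4, Chac1 (which degrades glutathione) and Nupr1 had log2 fold changes of 0.13, −0.05 and 0.32 and were not called.

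In one-carbon metabolism the called genes were the cytosolic and the mitochondrial enzymes that interconvert formate and tetrahydrofolate units. Mthfd1, the trifunctional cytosolic enzyme, read 157, 194, 191 and 158 CPM in controls and 171, 214, 318 and 219.7 CPM in LDHi, with 0.37 ± 0.09 as the log2 fold change (edgeR with the block, adjusted p = 0.0173). Mthfd1l, which makes formate in mitochondria, read 116, 158, 102 and 85.8 CPM and then 136, 167, 129 and 118 CPM, with 0.28 ± 0.07 (edgeR with the block, adjusted p = 0.0143). In each the gap was wider in replicates 3 and 4. Mthfd2 and the serine hydroxymethyltransferases Shmt1 and Shmt2 differed by 0.13, 0.20 and 0.02 (log2), none of them called.

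Asns was at 367, 505, 193 and 187 CPM in controls and at 422, 518, 392 and 339.6 CPM in LDHi. The second replicate barely moved, and replicates 3 and 4 came up towards the level of the first set, for a log2 fold change of 0.53 ± 0.14 (edgeR with the block, adjusted p = 0.0257). The other 3 genes of this group all had negative values: the proline enzymes Aldh18a1 and Pycr1 and the alanine aminotransferase Gpt2 were at −0.02, −0.27 and −0.31 (log2). None of these was called in all 12 libraries.

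Of the transporters, Slc7a1, which carries arginine and lysine, was at 182, 202, 56.6 and 58.9 CPM in controls and at 258, 250.4, 84.6 and 84.0 CPM in LDHi. The rise was similar in all 4 numbers, 0.48 ± 0.06 on the log2 scale (edgeR with the block, adjusted p = 0.000693). Slc7a3, a second cationic amino acid transporter, was at 63.0, 83.3, 9.41 and 9.29 CPM and then at 90.0, 104, 19.6 and 23.5 CPM, with 0.80 ± 0.23 (edgeR with the block, adjusted p = 0.0326). Slc7a5, the large neutral amino acid exchanger LAT1, was at 444, 491, 150.2 and 136 CPM and then at 518, 522, 184 and 153 CPM, with 0.19 ± 0.06 (edgeR with the block, adjusted p = 0.0376). Its heavy chain Slc3a2 differed by 0.08 ± 0.05 and was not called. The remaining transporters, Slc7a11, Slc1a4, Slc1a5, Slc38a2 and Slc6a9, had log2 fold changes between −0.01 and 0.16, none of them called.

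**Figure D2:**
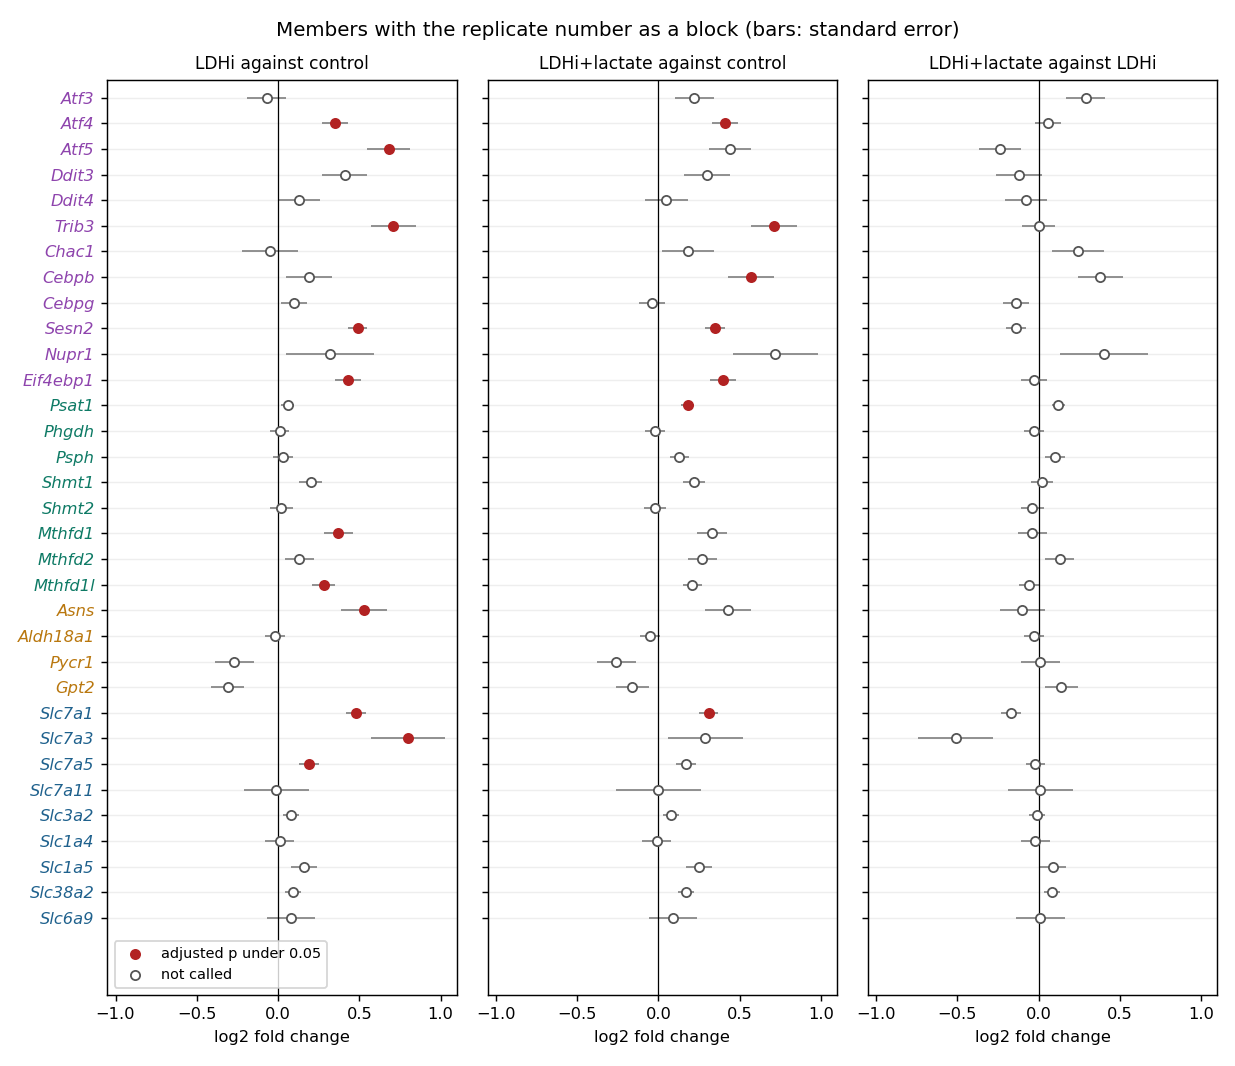
Log2 fold change of each of the 33 genes with the replicate number as a block, for LDHi against control, LDHi+lactate against control and LDHi+lactate against LDHi. Bars are standard errors and filled red points have an adjusted p under 0.05 (edgeR). Red points number 11, 7 and 0 from left to right, and all lie above 0.

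Markers of several cell types differed between the same groups. The summed level of 7 eye field markers was 775 to 1431 CPM in controls and 582 to 645 CPM in LDHi, and 7 of 7 were called lower with the block. Pluripotent cell markers summed to 223 to 461 CPM in controls and 541 to 993 CPM in LDHi, and 7 of 7 were called higher. Mesenchyme markers summed to 168 to 673 CPM in controls and 103 to 164 CPM in LDHi, with 5 of 6 called lower. Mesoderm and endoderm markers ran from 71.8 to 150.4 CPM in controls and from 116 to 200.5 CPM in LDHi, with 3 of 5 tested called higher, Mixl1, Sox17 and Foxa2. Neuron markers ran from 112 to 585 CPM and from 166 to 594 CPM, with 0 of 5 called. The part of these markers in the changes of the stress and amino acid genes was not tested.

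Because the sets differed so much in level, the inhibitor's effect was also fitted in each set alone, with the replicate block. In the first set 8 genes rose (6.96% of all genes were called higher): Atf5, Ddit3, Trib3, Sesn2, Slc7a1, Slc7a3, Slc7a11 and the glycine transporter Slc6a9. In the second set 10 rose (7.98% of all genes were called higher): Atf4, Trib3, Sesn2, Eif4ebp1, Shmt1, Mthfd1, Mthfd1l, Asns, Slc7a1 and Slc7a3. Pycr1 and Gpt2 fell there, where 3124 of 17282 genes were called in either direction. Trib3, Sesn2, Slc7a1 and Slc7a3 were called in both sets, and the share of all genes called in both was not counted. Each set alone holds 2 libraries per group.

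The difference between the sets in the inhibitor's effect was itself tested, as an interaction. With the replicate block, 6 of the 33 genes were called, against 4.10% of all genes (this fit was added after the data were seen). Atf5 rose by 1.06 ± 0.06 (log2) in the first set and was at 0.28 ± 0.09 in the second, a difference of −0.77 (edgeR with the block, adjusted p = 0.00351). Slc7a11, the cystine importer that supplies glutathione synthesis, had values of opposite sign in the sets. In the first it rose by 0.42 ± 0.07 (log2, edgeR with the block, adjusted p = 0.00861). In the second it was at −0.76 ± 0.29 and was not called (edgeR with the block, adjusted p = 0.107). It was at 61.9 and 39.4 CPM in control replicates 1 and 2 and at 83.9 and 52.4 CPM in LDHi, but at 4.72 and 7.04 CPM and then 1.98 and 5.57 CPM in replicates 3 and 4, a difference of −1.12 (edgeR with the block, adjusted p = 0.0284). Gpt2 was at 149.7, 157, 63.7 and 75.8 CPM in controls and 158, 141, 40.6 and 52.8 CPM in LDHi, a difference of −0.54 (edgeR with the block, adjusted p = 0.0240).

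The other 3 of these genes rose more in the second set. Asns had log2 fold changes of 0.12 ± 0.07 in the first set and 0.93 ± 0.09 in the second, a difference of 0.82 (edgeR with the block, adjusted p = 0.0102). For Slc7a3 the values were 0.42 ± 0.07 and 1.18 ± 0.17, a difference of 0.78 (adjusted p = 0.0215 in edgeR with the block). For Mthfd1 they were 0.13 ± 0.06 and 0.59 ± 0.08, a difference of 0.48 (adjusted p = 0.0378 in edgeR with the block). Without the block 0 members and 0 genes were called for such a difference by edgeR, with 7 members and 694 genes at an unadjusted p under 0.05. By the blocked test, 4 of 5 neuron markers and 2 of 6 mesenchyme markers also differed between the sets, with lower values in the second, as did 2 of 7 eye field markers, with higher values. Their part in the 6 differences was not tested.

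**Figure D3:**
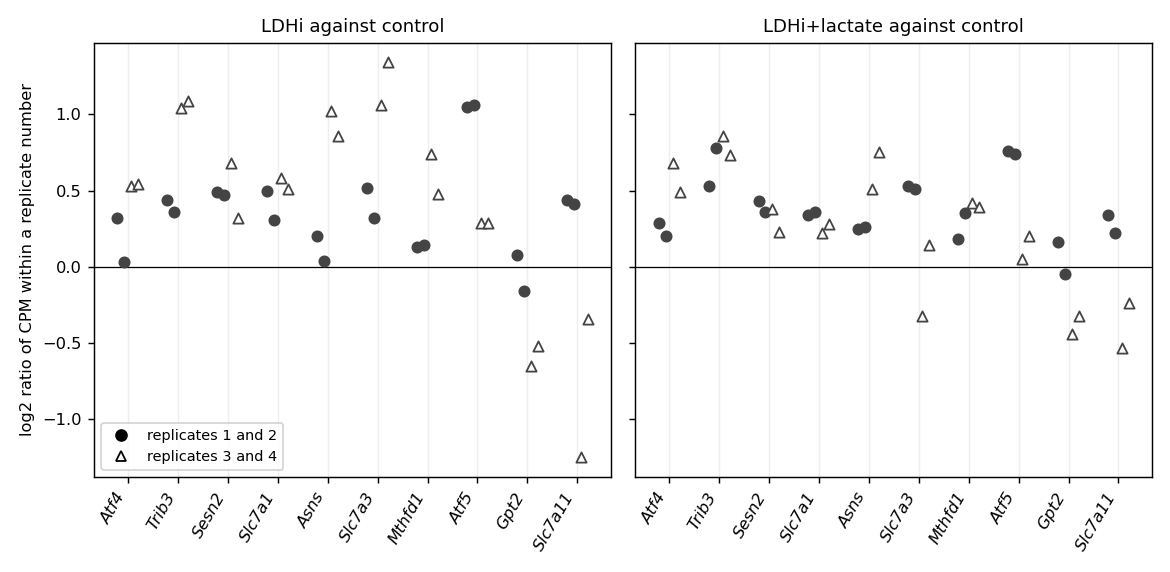
Log2 ratio of CPM to the control of the same replicate number for 10 of the genes, in LDHi (left) and LDHi+lactate (right). Filled circles are replicates 1 and 2, open triangles replicates 3 and 4. Atf4, Trib3, Sesn2, Slc7a1, Asns and Mthfd1 lie above 0 throughout, and Slc7a11 lies above 0 in the first set and below 0 in the second in both panels.

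The next question was whether lactate, given with the inhibitor, moved these genes back. No member was called between LDHi+lactate and LDHi, with or without the block. With the block 0.638% of all genes were called (101 higher and 12 lower), and without it 0% (603 genes at an unadjusted p under 0.05 in edgeR, and 56 called by DESeq2). The members' median log2 fold change was −0.01 with the block, with 15 above and 18 below 0. Before adjustment, 6 of the 33 were at a p under 0.05 in the blocked edgeR fit: Atf3, Cebpb and Psat1 with values above 0, and Sesn2, Slc7a1 and Slc7a3 with values below 0. The share of all genes at that p in the blocked fit is not given here. The 603 genes above are from the fit without the block and cannot be set beside these 6. In all 4 replicate numbers, 3 genes (9.09%) were lower with lactate, Atf5, Cebpg and Sesn2, against 10.2% of all genes. Another 4 (12.1%) were higher in all 4 numbers, Atf3, Cebpb, Psat1 and Gpt2, against 11.6% of all genes. Both shares are near those of all genes.

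The largest downward value with lactate belonged to Slc7a3, at −0.51 ± 0.23 (log2, edgeR with the block, adjusted p = 0.429). Its levels with lactate were 90.9, 119, 7.55 and 10.2 CPM. In replicates 1 and 2 these are above the LDHi libraries, and in replicates 3 and 4 they are close to the control libraries. Fitted in each set alone, Slc7a3 was 0.11 ± 0.07 in the first set and fell by 1.28 in the second (edgeR with the block, adjusted p = 0.0318). The difference between the sets, −1.39, missed the threshold (edgeR with the block, adjusted p = 0.0579).

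Atf5 read 439, 417, 44.0 and 61.7 CPM with lactate, below LDHi in each number. In the first set alone it fell by 0.31 (log2, edgeR with the block, adjusted p = 0.0435), and over both sets the value was −0.24 ± 0.13 (adjusted p = 0.525 in edgeR with the block). Sesn2 read 336, 319, 167 and 145 CPM, also below LDHi in each number and above control in each, with −0.14 ± 0.06 against LDHi (edgeR with the block, adjusted p = 0.367). Trib3, at 34.4, 43.1, 10.9 and 8.01 CPM, was above LDHi in the first set and below it in the second, for a log2 fold change of 0.00. By comparison, 7 of 7 eye field markers had higher values with lactate than with the inhibitor alone, and 3 of them were called with the block. Their summed level was 739.6 to 1023 CPM with lactate.

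Set against control, LDHi+lactate organoids had 7 genes higher and 0 lower with the block (21.2% of the members against 4.18% of all genes higher). They were the regulators Atf4, Trib3, Cebpb, Sesn2 and Eif4ebp1, the serine enzyme Psat1 and the transporter Slc7a1. The count rested on single libraries: it was 0 without control replicate 3, 1 without LDHi+lactate replicate 1 or 2, 2 without LDHi+lactate replicate 4, 3 without control replicate 4 and 4 without LDHi+lactate replicate 3. Calls over all genes also fell, from 1426 to 240 without control replicate 3 and to 329 and 303 without LDHi+lactate replicates 1 and 2. They were 245 without LDHi+lactate replicate 4, 693 without control replicate 4 and 569 without LDHi+lactate replicate 3. Atf4, Trib3, Sesn2, Eif4ebp1 and Slc7a1 were also called in LDHi against control, and both comparisons use the same control libraries. Without the block 0 members and 0% of all genes were called (edgeR). In 4 of 4 numbers 20 of the 33 genes (60.6%) were higher with inhibitor and lactate than in control, against 18.6% of all genes, and 0 were lower in all 4. Any positive difference counts here, however small. The log2 ratio was 0.00 for Slc3a2 in replicate 3 and 0.01 for Atf3 in replicate 2 and Slc1a5 in replicate 3.

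Atf4 was at 209.7, 229.5, 96.6 and 80.2 CPM with lactate, above each control by a log2 fold change of 0.41 ± 0.08 (edgeR with the block, adjusted p = 0.0222), beside 0.35 for LDHi. For Trib3 the value was 0.71 ± 0.14 (adjusted p = 0.0167 in edgeR with the block), beside 0.71. Sesn2 stood at 0.35 ± 0.06 (adjusted p = 0.0112 in edgeR with the block), beside 0.49. Eif4ebp1, at 169, 254, 109 and 93.5 CPM, and Slc7a1, at 231, 259, 66.1 and 71.6 CPM, were 0.40 ± 0.08 and 0.31 ± 0.06 above control (edgeR with the block, adjusted p = 0.0200 and 0.0184). These are the 5 genes called against control with and without lactate.

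Cebpb, a partner of ATF4 on its response elements, was at 4.22, 5.60, 6.84 and 8.40 CPM in controls and at 6.24, 4.69, 7.60 and 10.1 CPM in LDHi. With lactate it was at 6.29, 7.77, 10.3 and 13.3 CPM, the highest of the 3 groups in each number, and 0.57 ± 0.14 above control (log2, edgeR with the block, adjusted p = 0.0381). Psat1 was at 602, 756, 218 and 185 CPM in controls, 646, 721, 227 and 204 CPM in LDHi and 698, 799, 247 and 219 CPM with lactate. It was likewise highest with lactate in each number, by 0.18 ± 0.04 over control (edgeR with the block, adjusted p = 0.0359). Cebpb shares 20.7% of its exon bases with Tmem189 on the opposite strand. No source used here states whether HTSeq counted by strand, so the count of Cebpb is uncertain.

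The genes called in LDHi but not with lactate had these values against control: Atf5 0.44, Mthfd1 0.33, Mthfd1l 0.21, Asns 0.43, Slc7a3 0.29 and Slc7a5 0.17 (log2, with the block). Their levels with lactate were 177, 246, 256 and 206 CPM for Mthfd1 and 138, 181, 110.2 and 105 CPM for Mthfd1l. Asns read 437, 606, 274 and 314 CPM, and Slc7a5 543, 554, 155 and 153 CPM. A call in one comparison and not in the other does not show that they differ, and no direct test of lactate against the inhibitor alone called any of these genes over the 12 libraries.

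The largest differences among the libraries lay between the sets. In replicates 3 and 4, 26 of the 33 genes were lower than in replicates 1 and 2 and only Ddit4 and Cebpb were higher, with a median log2 fold change of −1.31 over the members and −0.01 over all genes. Of all genes 14.3% were lower and 13.7% higher, against 78.8% and 6.06% of the members, which were chosen with earlier results of these data known. For 23 members the 6 libraries of the second set all lay below the 6 of the first (6.72% of all genes), and for Ddit4 alone they all lay above (5.62% of all genes). The test was edgeR's with group and set as terms. Libraries of one replicate number deviate together, so that 6 against 6 libraries overstates the evidence and these p-values are too small.

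The widest gap was that of Slc7a11, which ran from 39.4 to 83.9 CPM (median 57.2) in the first set and from 1.98 to 7.04 CPM (median 5.15) in the second, a 12.7-fold difference (log2 −3.66 ± 0.31, edgeR adjusted p = 2.11e-05). Slc7a3 ran from 63.0 to 119 CPM (median 90.5) and from 7.55 to 23.5 CPM (median 9.81), and the alanine, serine and cysteine carrier Slc1a4 from 95.8 to 129 CPM (median 109) and from 15.6 to 30.1 CPM (median 20.6). None of these ranges touch. Slc6a9 went from 25.1 to 37.3 CPM (median 33.2) in the first set to 6.08 to 10.8 CPM (median 8.24) in the second, though it shares 27.8% of its exon bases with Ccdc24. Slc7a1 lay at 182 to 259 CPM (median 241) against 56.6 to 84.6 CPM (median 68.9), a log2 fold change of −1.72 ± 0.06 (edgeR adjusted p = 6.22e-08, the smallest of the list). Slc7a5 lay at 444 to 554 CPM (median 520.0) against 136 to 184 CPM (median 153). Slc3a2, which pairs with Slc7a5 and Slc7a11 at the membrane, lay at 271 to 302 CPM (median 279.5) against 117 to 147 CPM (median 131), and the glutamine carrier Slc1a5 at 53.9 to 81.3 CPM (median 62.3) against 32.1 to 39.7 CPM (median 34.6). The exception among the transporters was Slc38a2, which takes up small neutral amino acids. It lay at 378 to 467 CPM (median 419) and 385 to 474 CPM (median 446) and was not called.

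Among the regulators Atf5 was lowest relative to the first set, at 250.1 to 538 CPM (median 428) against 42.5 to 65.6 CPM (median 52.8), a log2 fold change of −2.87 ± 0.14 (edgeR adjusted p = 4.79e-07). Chac1 lay at 14.0 to 18.4 CPM (median 16.8) against 1.80 to 3.92 CPM (median 2.65), and Trib3 at 23.7 to 43.1 CPM (median 32.3) against 4.84 to 12.4 CPM (median 9.17). All are textbook targets of the ATF4 pathway or factors within it. Atf4 lay at 171 to 229.5 CPM (median 207) against 57.2 to 96.6 CPM (median 81.8), 2.68-fold apart (log2 −1.42 ± 0.08, edgeR adjusted p = 9.93e-07). Nupr1 lay at 3.67 to 9.10 CPM (median 4.36) against 1.01 to 2.47 CPM (median 1.37). Sesn2 lay at 249 to 352 CPM (median 328) against 124 to 205 CPM (median 149.5), and Eif4ebp1 at 142 to 254 CPM (median 175) against 65.7 to 136 CPM (median 94.1). Ddit3 was lower, at −0.59 (log2), with overlapping sets, 10.5 to 23.7 CPM against 8.68 to 14.5 CPM (edgeR adjusted p = 0.0271). In the opposite direction, Ddit4 lay at 96.9 to 136 CPM (median 119.8) against 137 to 254 CPM (median 229), a log2 fold change of 0.82 ± 0.16 (edgeR adjusted p = 0.00335). Cebpb, at 4.22 to 7.77 CPM against 6.84 to 13.3 CPM, was 0.69 ± 0.14 higher (edgeR adjusted p = 0.00438). Atf3 and Cebpg were not called.

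All 3 enzymes of serine synthesis were lower in the second set. Psph, the last of them, lay at 65.9 to 85.4 CPM (median 76.8) against 19.9 to 22.5 CPM (median 21.3), and Psat1 at 602 to 799 CPM (median 709) against 185 to 247 CPM (median 218). Phgdh, the first enzyme, lay at 109 to 125 CPM (median 113) against 51.3 to 59.8 CPM (median 56.5). Within a set these 3 genes varied little between the treatments. For Phgdh, 47.8% of the 50-base words of its transcripts also occur in transcripts of 23 other genes, pseudogenes among them, so its count is uncertain, and Psph shares 10.4% of its exon bases with Cct6a. The mitochondrial enzymes Shmt2 and Mthfd2 lay at 357 to 418 CPM (median 376) against 131 to 164 CPM (median 142) and at 122 to 169 CPM (median 133) against 44.0 to 58.3 CPM (median 52.5). Mthfd1l, also mitochondrial, was at −0.47 (log2; 116 to 181 CPM against 85.8 to 129 CPM, overlapping). The cytosolic enzymes Shmt1 and Mthfd1 were not called, with log2 fold changes of −0.09 ± 0.13 and 0.20 ± 0.13.

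The remaining synthetic enzymes were all lower. Aldh18a1 lay at 223 to 241 CPM (median 232) against 92.7 to 113 CPM (median 106), and Pycr1 at 61.2 to 67.3 CPM (median 62.2) against 20.2 to 34.1 CPM (median 24.7). Gpt2 lay at 141 to 167 CPM (median 155) against 40.6 to 75.8 CPM (median 56.9). Asns, at 367 to 606 CPM (median 471) against 187 to 392 CPM (median 294), overlapped, and was at −0.79 ± 0.14 (log2, edgeR adjusted p = 0.00239).

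**Figure D4:**
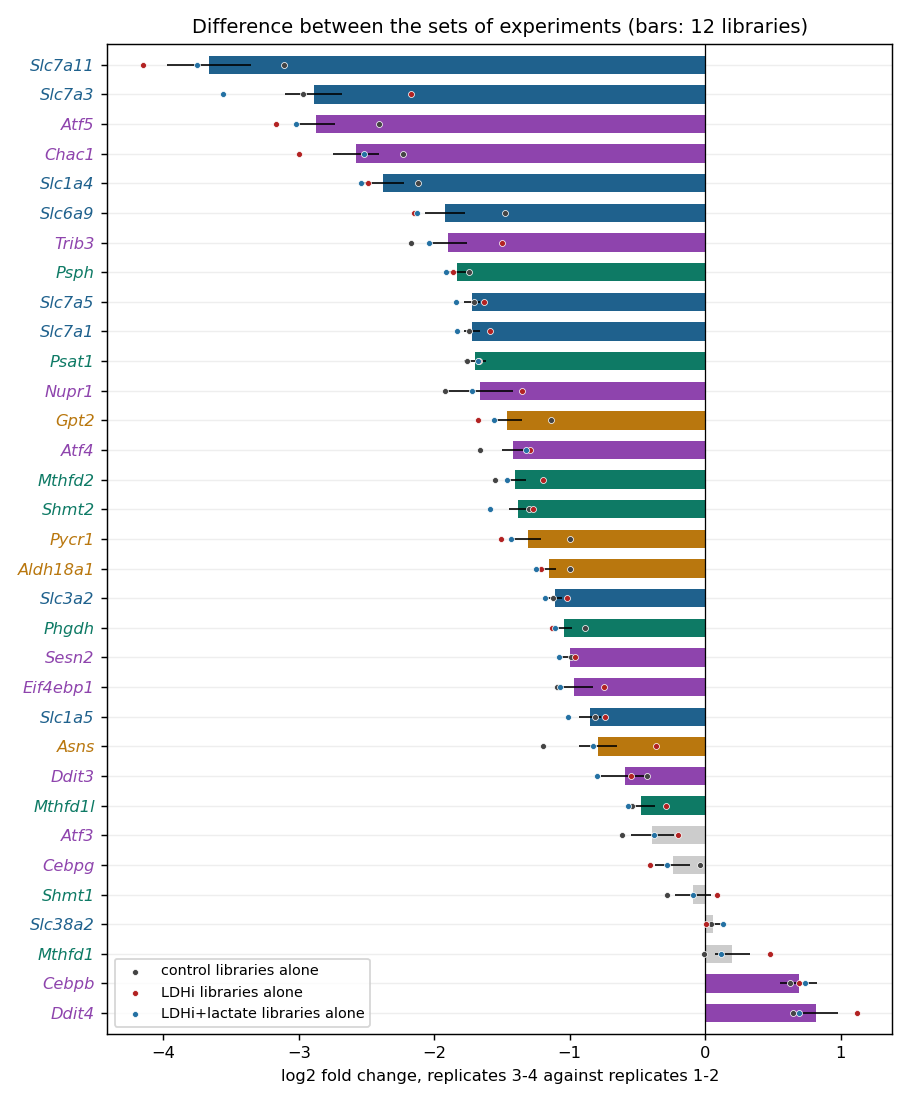
Log2 fold change of replicates 3 and 4 against replicates 1 and 2 for the 33 genes, with bars from all 12 libraries and lines for the standard error. Bars are colored by role where the adjusted p is under 0.05 (edgeR) and gray otherwise, and dots give the same difference in each treatment group alone. The bars run from −3.66 for Slc7a11 to 0.82 for Ddit4.

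Compared within one treatment group, which leaves 2 against 2 libraries, 14 members were called in LDHi (34 genes in all), 7 in LDHi+lactate (10 genes in all) and 0 in control (0 genes). Atf5, for one, was at −2.41 in control, −3.17 in LDHi and −3.02 in LDHi+lactate. When the counts of the 3 libraries of a replicate number were summed and the 4 sums compared, 2 against 2, 23 of 20625 genes were called (3481 at an unadjusted p under 0.05 in edgeR; this test was added after the data were seen). Of these, 18 were lower in the second set, 0.0873% of the genes tested, and 11 of the 18 were members: Atf4, Atf5, Psat1, Psph, Shmt2, Mthfd2, Aldh18a1, Pycr1, Slc7a1, Slc7a3 and Slc7a5. For Atf4 this test gave −1.39 ± 0.10 (edgeR adjusted p = 0.0369) and for Atf5 −2.92 ± 0.16 (edgeR adjusted p = 0.0261).

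The summed levels of all 5 marker lists overlapped between the sets. The eye field markers summed to 606 to 1431 CPM in the first set and 582 to 1317 CPM in the second, and the pluripotent cell markers to 223 to 959 CPM and 290.0 to 993 CPM. Mesenchyme markers summed to 137 to 198 CPM and 103 to 673 CPM, and neuron markers to 112 to 594 CPM and 105 to 585 CPM. Mesoderm and endoderm markers, at 121 to 200.5 CPM and 71.8 to 129 CPM, were lower in the second set for 2 of 5 genes tested, Sox17 at −0.87 and Foxa2 at −1.19 (log2). Of the 7 eye field markers 1 was lower, Lhx2 at −0.40, and 1 higher, Otx2 at 0.49 (edgeR adjusted p = 0.0393 and 0.0160). Of the 6 mesenchyme markers 1 was higher, Prrx1 at 1.06 (edgeR adjusted p = 0.0145), and 0 pluripotent cell or neuron markers were called. Their part in the difference between the sets was not tested.

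Other genes of the same pathways were followed in 6 lists. In LDHi against control with the block, 5 of 12 genes of eIF2 control were higher and 0 lower, with a median log2 fold change of 0.20. They included Eif2b5 and Eif2b4, subunits of the exchange factor that recycles eIF2, at 0.28 and 0.23 (edgeR adjusted p = 0.00835 and 0.0112). Ppp1r15a, the ATF4-pathway phosphatase subunit that reverses eIF2 phosphorylation, was at 0.26 (edgeR adjusted p = 0.0108), and the heme-regulated eIF2 kinase Eif2ak1 at 0.20 (edgeR adjusted p = 0.0186). The other eIF2 kinases, Eif2ak2, Eif2ak3 and Eif2ak4, were at −0.20, −0.14 and −0.14 and were not called. Of 20 cytosolic aminoacyl-tRNA synthetases 6 were higher and 0 lower, with Tars, Eprs and Aars at 0.20, 0.19 and 0.20 and Yars at 0.19 (edgeR adjusted p = 0.00965, 0.0151, 0.0206 and 0.0278). These shares, 41.7% and 30.0%, stand beside 9.85% of all genes. By contrast 1 of 19 endoplasmic reticulum chaperones and unfolded protein response genes was higher, Creld2 at 0.19 (edgeR adjusted p = 0.0411), and the major chaperone Hspa5 was at 0.03.

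Glutamine and glutamate genes moved in both directions. Among 25 further amino acid and one-carbon enzymes 4 were higher and 2 lower. Glul, which makes glutamine, fell by 0.62, and Glud1, which turns glutamate into 2-oxoglutarate, rose by 0.46 (edgeR adjusted p = 0.000949 and 0.00563). Among 16 further amino acid transporters 3 were higher and 4 lower. The glutamine transporter Slc38a3 fell by 2.23 and the branched-chain amino acid carrier Slc43a2 rose by 0.51 (edgeR adjusted p = 0.000284 and 0.00771). Of 13 further genes linked to ATF4, Gdf15, a secreted stress hormone at 0.814 CPM in controls, rose by 1.17 and the pro-apoptotic gene Bbc3 by 0.35, while the transcription factor Nfil3 fell by 0.83 (edgeR adjusted p = 0.0302, 0.0105 and 0.000742). Without the block 0 genes of these 6 lists were called higher and 3 lower. Between LDHi+lactate and LDHi the only gene of the 6 lists called with the block was Slc38a3, which was 1.23 higher with lactate (edgeR adjusted p = 0.0401).

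Between the sets, 14.3% of all genes were lower and 13.7% higher, and the counts of the lists stand beside these shares. Of the 20 synthetases 11 were lower and 0 higher (median −0.70), with Cars at −1.42 and Yars at −1.14 (edgeR adjusted p = 8.81e-08 and 3.86e-07). Of the 19 endoplasmic reticulum genes 18 were lower (median −0.60), with Hspa5 at −0.99 and Xbp1 at −1.09 (edgeR adjusted p = 4.07e-07 and 7.02e-07), although they had barely moved with the inhibitor. The eIF2 genes had a median of −0.10, with 3 lower and 1 higher. Of the further enzymes 7 were lower and 2 higher. Those with the largest drops were Aldh1l2, the mitochondrial formyltetrahydrofolate dehydrogenase, at −3.36, and the cysteine-forming enzyme Cth at −1.73 (edgeR adjusted p = 1.73e-05 and 1.38e-05). The 16 further transporters were split, 2 lower and 2 higher, near the shares of all genes. Among the further genes linked to ATF4, 5 were lower and 3 higher, with the mitochondrial enzyme Pck2 at −1.74 and the peptide hormone Adm2 at −2.53 (edgeR adjusted p = 7.02e-07 and 9.46e-05).

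**Figure D5:**
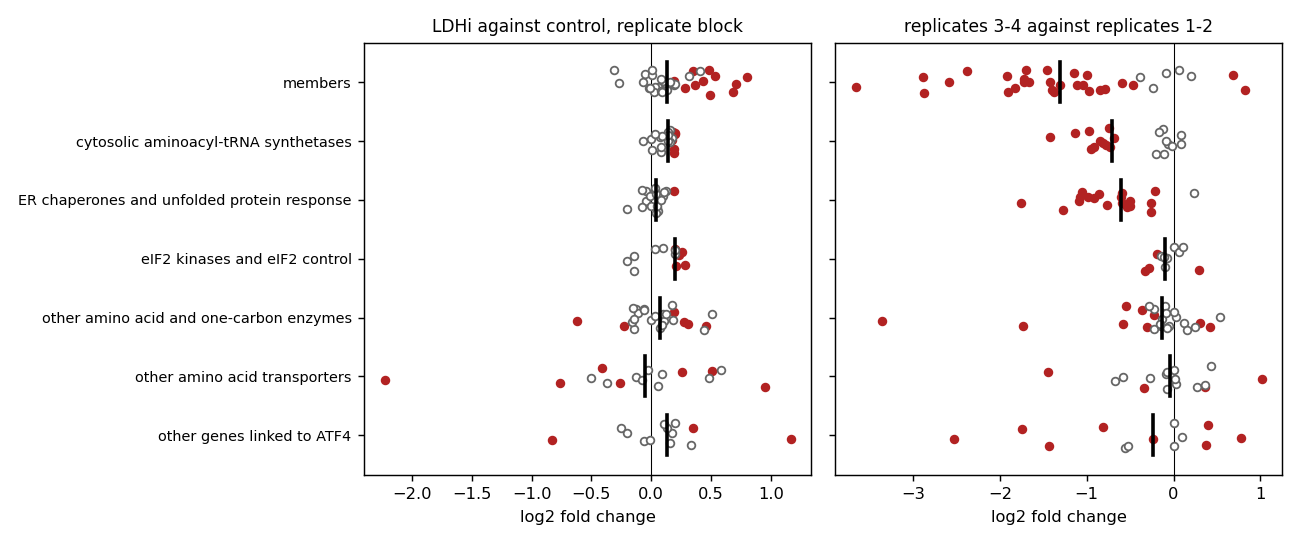
Log2 fold changes of the members and of the genes of 6 other lists, for LDHi against control with the replicate block (left) and for replicates 3 and 4 against replicates 1 and 2 (right). Each point is a gene, filled red where its adjusted p is under 0.05 (edgeR), and black bars are medians. On the right the medians are −1.31 for the members, −0.70 for the synthetases and −0.60 for the endoplasmic reticulum genes.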

How the data were processed

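The authors deposited raw counts per Ensembl gene. Per the labels, cutadapt 1.13, STAR, the build mm10, HTSeq 0.6.1p1 and DESeq2 1.14.1 were used. The methods give TruSeq mRNA libraries, 50 bp single reads and 4 independent experiments. With the STAR version, the annotation release and the strand setting not given in the sources used here, counts of overlapping genes are uncertain. Symbols of 54079 of 54232 IDs came from GENCODE vM21. Of the 2 IDs named Ddit3, the one with counts was used, since the other held 0. Mitochondrial genes hold 0 counts.

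Counts were tested with edgeR 4.0.16 in R 4.3.3 (quasi-likelihood test, TMM, filterByExpr, all 12 libraries, Benjamini-Hochberg over 17721 genes, adjusted p under 0.05). CPM used TMM-scaled totals, and the SE was the log2 fold change over the root of F. Depth limits only the lowest genes, such as Fgf21. No library was a repeat of another of its group (chi-square per gene 27.6 to 134). The main design had no block, since the methods name none. Same-numbered libraries deviated together from their group means (correlations over genes 0.329 to 0.634 in 12 pairs, against −0.220 to 0.197 for other numbers of the same set), so the results of a second fit, blocked on the replicate number, stand beside it. This pairing was read from the data. With 4 against 4 libraries the smallest exact permutation p is 0.0286, and no member had groups apart, so none is given.

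The members, the lists and the sets were chosen with earlier results of these data known. All members are named, with library values for those called, and from each list up to 4 called genes per comparison and up to 2 others. Alternatives were DESeq2 1.42.0, RLE size factors, library totals, other filters, the 2 groups compared, each set alone, a term for the set and each library left out. The same settings with the block, the interaction with the block and the summed counts were added after the data were seen. The fits were tested on simulated counts. Promoters are RefSeq's, and figures were drawn with matplotlib 3.10.9.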

Additional observations from a re-analysis of the deposited data

Results flagged for a closer look

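In LDHi replicate 4, Atf3 was at 7.18 CPM, apart from the other 3 libraries of the group, the nearest of which was at 9.52 CPM. In LDHi+lactate replicate 1, Slc38a2 was at 397 CPM, apart from the other 3, the nearest at 467 CPM. Chance alone sets about 1 in 20 groups of 4 apart in this way.

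For 6 genes the effect of the inhibitor differed between the first set (replicates 1 and 2) and the second (replicates 3 and 4), by edgeR with the replicate number as a block. The difference, second minus first on the log2 scale, was −0.77 for Atf5, −0.54 for Gpt2 and −1.12 for Slc7a11, whose effect was more positive in the first set. It was 0.48 for Mthfd1, 0.82 for Asns and 0.78 for Slc7a3, whose effect was more positive in the second. The adjusted p-values ran from 0.00351 for Atf5 to 0.0378 for Mthfd1. None of the 6 was called without the block. Cell type label and depth change with the set, and their part in these differences was not tested.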

How the results depend on the processing

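The count of members called for LDHi against control was 0 without the replicate block, 11 with it, 5 with the set as a term and 1 in replicates 3 and 4 alone, where it was Asns. It was 0 with each library left out without the block. With the block, the 11 became 6 when only the 2 groups compared were fitted and 0 without the block, and stayed within 8 to 13 under the other settings. Leaving out 1 library gave 6 to 13. It was 6 without control replicate 3, control replicate 4, LDHi replicate 3 or LDHi replicate 4 (2346 to 2912 of all genes, against 3533 with none left out). Atf5, Trib3, Sesn2, Eif4ebp1 and Slc7a1 passed in all 12 of these fits, while Slc7a5 was lost in 10, Slc7a3 in 6, Atf4 in 5, Asns in 4 and Mthfd1 and Mthfd1l in 3 each. For LDHi+lactate against control the 0 became 7 with the replicate block, and the 7 became 0 without it, 11 with the 2 groups only, 4 in replicates 1 and 2 alone, 14 with DESeq2 and 12 with no filter. Leaving out 1 library gave 0 to 10: 0 without control replicate 3, 1 without LDHi+lactate replicate 1 or 2, 2 without LDHi+lactate replicate 4, 3 without control replicate 4 and 4 without LDHi+lactate replicate 3. Without these libraries the calls over all genes fell too, from 1426 to between 240 and 693. Between LDHi+lactate and LDHi, the 0 with the block became 1 in replicates 1 and 2 alone, 1 in replicates 3 and 4 alone and 1 with no filter, and was 0 to 0 with each library left out. The 28 members called between the sets became 0 in control, 14 in LDHi and 7 in LDHi+lactate libraries alone and 11 with summed counts, with fewer samples in each, and were 27 to 29 with each library left out; Ddit3 was lost in 7 of these 12 fits. The 0 members whose LDHi effect differed between the sets became 6 with the replicate block. No called member changed direction under any alternative run. The scalings moved the median of all genes by at most 0.02 (log2). The causes were not tested. Depth limits Fgf21, with 39 counts in all.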

Other observations

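With counts summed over the 3 libraries of a replicate number, 7 genes outside the 34 were lower in the second set. These were Aldh1l2 (47.2 against 4.61 CPM on average in the first and second set), Cth (52.2 against 15.8), Pck2 (116 against 34.6) and the synthetases Cars (168 against 63.2) and Yars (295 against 134), which belong to the related lists. The other 2 are in no list: Trim66 (30.7 against 2.23 CPM) and the selenoprotein Selenos, which acts in the removal of misfolded proteins from the endoplasmic reticulum (71.5 against 30.5 CPM). Outside the lists 5 genes were higher in the second set. Slc5a3, which imports the osmolyte myo-inositol, stood at 16.1 CPM in the first set and 46.1 CPM in the second, and the kinase Lmtk2 at 59.6 and 136 CPM. The histone genes Hist1h2bb and Hist1h2bf stood at 0.166 and 0.0354 CPM in the first set and at 30.4 and 8.83 CPM in the second, and the gene Gm12957 at 0.00813 and 7.97 CPM. The mRNAs of such histone genes mostly lack a poly(A) tail. These genes were named after their values were seen, and the part of library preparation in their difference was not tested.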
